A study of Mus musculus with 20 samples.

Results

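The transcripts of 9 genes that build the myelin sheath were followed through the neuronal differentiation of mouse embryonic stem cells with and without knockdown of HPRT, the purine salvage enzyme. The genes were taken by symbol from a list of myelin proteins and myelin lipid enzymes (Mbp, Mag, Mog, Mobp, Cnp, Fa2h, Ugt8a, Cldn11 and Opalin), and each was found once among 37561 genes. Both lines came from ESD3 cells of strain 129s2/SvPas kept on mouse embryo fibroblast feeders. The Control line carried a viral short hairpin RNA against luciferase and the HPRT knockdown line one against HPRT, so both lines had been transduced and selected, and 1 line of each kind was studied. The labels name a retrovirus and the study's methods a lentiviral vector aimed at the human HPRT gene, with puromycin selection. Whether the lines were clones is not given in the sources used here. Spherical neural masses, which are clusters of neural precursors, were driven toward dopaminergic neurons, with libraries from each day up to day 4 and from every other day between days 6 and 14. There was 1 library per line and day (20 libraries, 10 per line), made from pooled RNA, and no replicate within a day. Values below are log2 ratios of the HPRT knockdown over the Control within a day, or log2 levels within a line relative to its own day 0, joined from tables of consecutive days that were normalized separately.

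Myelin is the membrane that oligodendrocytes wrap around axons in the central nervous system. Oligodendrocyte precursors, set up by transcription factors such as Olig2 and Sox10, stop dividing, form a premyelinating cell and then switch on the genes for myelin proteins and for the galactolipids of the sheath. Mbp holds the cytoplasmic faces of the membrane together, while Mag, Mog and Opalin are surface glycoproteins. Cldn11 forms the tight junctions of the sheath, and Fa2h and Ugt8a make its hydroxylated galactolipids.

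All 9 genes had the same unusual course in the knockdown line. Their levels were at most 0.74 above day 0 on days 1 and 2, much higher in the single library of day 3, near or below the start again on day 4, and above it from day 6 to day 14. Each of the 9 genes was at least 2-fold higher on day 3 than on day 2, where 6.07% of the 13608 genes past the filter on low levels were. Each was at least 2-fold lower on day 4 than on day 3, against 4.73% of all genes. The step from day 4 to day 6 was at least 2-fold upward for 8 of 9 (all genes 4.83%), and that from day 8 to day 10 for 9 of 9 (all genes 4.60%). Only 315 genes past the filter, 2.31%, shared the upward step to day 3 and the downward step to day 4, a pattern picked out after its values were seen.

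**Figure D1:**
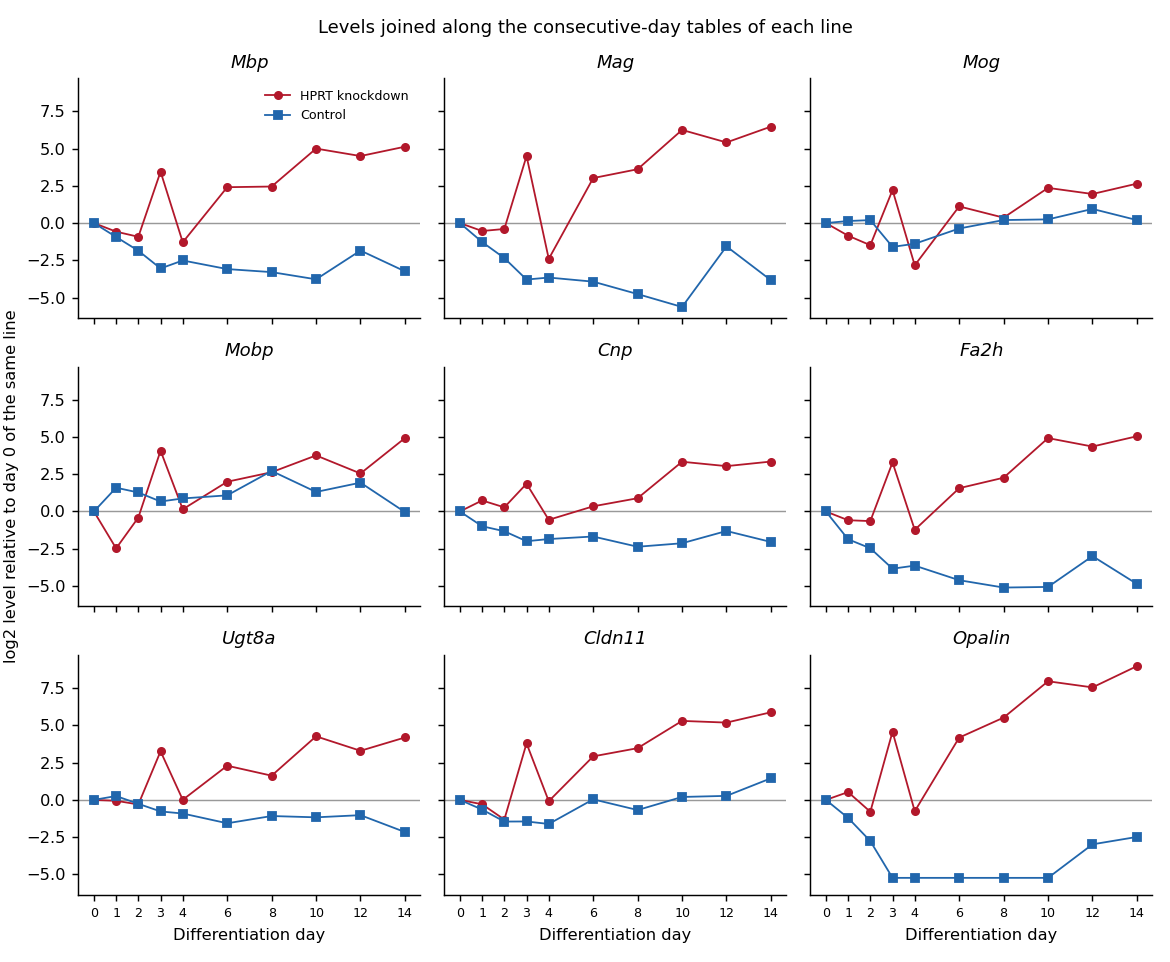
Log2 level of each gene relative to day 0 of its own line, by differentiation day, for the HPRT knockdown (red circles) and the Control (blue squares), 1 library per point. Each red curve has a peak on day 3, returns on day 4 and climbs again from day 6, while the blue curves of Mbp, Mag, Fa2h and Opalin lie below their start from day 1 on.

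Checks of the libraries follow, and day 3 was picked for comparison after its values in these genes were seen. The ratio of Hprt, the targeted gene, lay between -5.00 and -2.53 on all 10 days. The depth behind each value is unknown, as no read totals were used, and no counting interval is given. Over the 8248 genes at a typical log2 normalized count of 8 or more, the knockdown library of day 3 was as near to day 2 (median absolute log2 difference 0.179) as to day 4 (0.188), and farther from day 6 (0.267) and day 10 (0.287). The Control library of day 3 lay nearer to its neighbors, at 0.106 from day 2 and 0.115 from day 4. It was 0.265 from day 6 and 0.352 from day 10. Other days were not compared with the knockdown library of day 3 in this way. A median over so many genes would not show a difference in a small part of the RNA. Whether RNA of another day contributed to this knockdown library was not tested. Results that rest on day 3 are given with and without it. Day 6, which the study treated as discrepant, was not tested. In bulk samples a change in the number of cells of a type and a change in RNA per cell cannot be told apart.

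Mbp (Gene ID 17196, NCBIM37 chromosome 18, 82644538 to 82755029, plus strand) had this course at high counts. Relative to day 0 its knockdown level was -0.58, -0.92, 3.45 and -1.29 on days 1 to 4, then 2.41, 2.45, 5.00, 4.50 and 5.12 on days 6, 8, 10, 12 and 14. All 4 late days (8, 10, 12 and 14) lay above days 0, 1, 2 and 4, and day 3 lay between days 8 and 12. The Control level of Mbp was -3.04 (day 3), -3.77 (day 10) and -3.24 (day 14), and on day 10 the knockdown held 107-fold more Mbp transcript than the Control.

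Cldn11 (18417, chromosome 3, 31048868 to 31063246, plus strand), the claudin of the myelin tight junctions, had a late plateau. Its ratio was -1.42, -1.13, -1.30, 3.79 and 0.09 on days 0 to 4, then 1.41, 2.77, 3.72, 3.52 and 3.07 on days 6, 8, 10, 12 and 14. The day 3 value was the highest of all 10. The late ratios were the least spread of the 9 genes, at 3.27 ± 0.43 (SD, n = 4 days). Cldn11 also makes the tight junctions of Sertoli cells. Of 4 genes listed for these cells Amh was below the filter, while Gata4, Dmrt1 and Sox9 passed it. Its Control level was between -0.68 and 1.45 relative to day 0 on the late days.

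Mobp (17433, chromosome 9, 120058860 to 120090602, plus strand), a small protein of compact myelin, behaved less uniformly. Its ratio was -0.25, -4.39, -1.95, 3.13 and -1.19 on days 0 to 4, then 0.42, -0.48, 2.05, 0.20 and 4.48 on days 6, 8, 10, 12 and 14, so the late days overlapped the early ones. The knockdown level itself was 2.63, 3.76, 2.55 and 4.92 above day 0 on the 4 late days, but the Control level reached 2.72 on day 8 and 1.93 on day 12. The 4 tables around days 12 and 14 disagreed by 0.0975 for Mobp.

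The surface glycoproteins differed widely among themselves. For Mag (17136, chromosome 7, 31684202 to 31699851, minus strand), which faces the axon, the ratio was -2.80, -2.13, -0.86, 5.46 and -1.46 on days 0 to 4. It was 4.20, 5.72, 9.22, 4.31 and 7.67 on days 6, 8, 10, 12 and 14. Mag thus went from 6.96-fold higher in the Control on day 0 to 598-fold higher in the knockdown on day 10. Its knockdown level was 119-fold lower on day 4 than on day 3, the largest step of the 9 genes.

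Opalin (226115, chromosome 19, 41136964 to 41151603, minus strand), a small sialylated protein of the oligodendrocyte surface, was the one gene below the filter, which keeps genes whose typical log2 normalized count is 4 or more. In the Control line it was at the authors' floor of 1 normalized count on days 3, 4, 6, 8 and 10, so the knockdown values of those days are read against that floor. The knockdown library held 59.2, 1.13, 36.6, 101 and 563 normalized counts of Opalin on those days. The ratio was -3.95, -2.28 and -2.0 on days 0 to 2, then 6.62 and 7.57 on days 12 and 14. Opalin was thus above the floor in the Control on days 0, 1, 2, 12 and 14, and on day 4 the knockdown too was next to the floor.

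Mog (17441, chromosome 17, 37147691 to 37160343, minus strand), on the outermost face of the sheath and a late gene of normal myelination, had the smallest late mean ratio, 1.19 ± 1.05 (SD, n = 4 days), next to Mobp at 1.56 ± 2.22. Its ratio was -0.09, -1.14, -1.79, 3.69 and -1.75 on days 0 to 4, then 1.15, -0.08, 1.87, 0.75 and 2.22 on days 6, 8, 10, 12 and 14. Day 3 was the highest day for Mog. Without day 3 its mean ratio over the remaining 8 days was -0.0024.

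Cnp (12799, chromosome 11, 100436218 to 100453043, plus strand), an enzyme of the uncompacted myelin channels that precursors already make, was the exception in the early days. Its ratio was -0.73, 0.93, 0.86, 3.10 and 0.49 on days 0 to 4, and it was then 1.20, 2.52, 4.73, 3.60 and 4.67 on days 6, 8, 10, 12 and 14. The ratio of Cnp was above 0 on 8 of the 9 days tested. Of its exonic bases 154 (4.23%) also belong to Dnajc7 on the other strand, and reads there cannot be told apart because strand was not used.

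The lipid enzymes had the same course. Fa2h (338521, chromosome 8, 113869035 to 113917724, minus strand) adds the hydroxyl group of myelin galactolipids, and Ugt8a (22239, chromosome 3, 125568277 to 125641468, minus strand) adds the galactose. The ratio of Fa2h was -2.24, -1.03, -0.43, 4.86 and 0.46 on days 0 to 4, then 4.20, 5.49, 8.10, 5.46 and 8.04 on days 6, 8, 10, 12 and 14. Its 4 late days lay above all early days, day 3 included. That of Ugt8a was -1.05, -1.44, -1.11, 2.96 and -0.32 on days 0 to 4, then 2.59, 1.53, 4.25, 3.12 and 5.18. At their highest, Fa2h was 275-fold (day 10) and Ugt8a 36.2-fold (day 14) more abundant in the knockdown library than in the Control library.

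**Figure D2:**
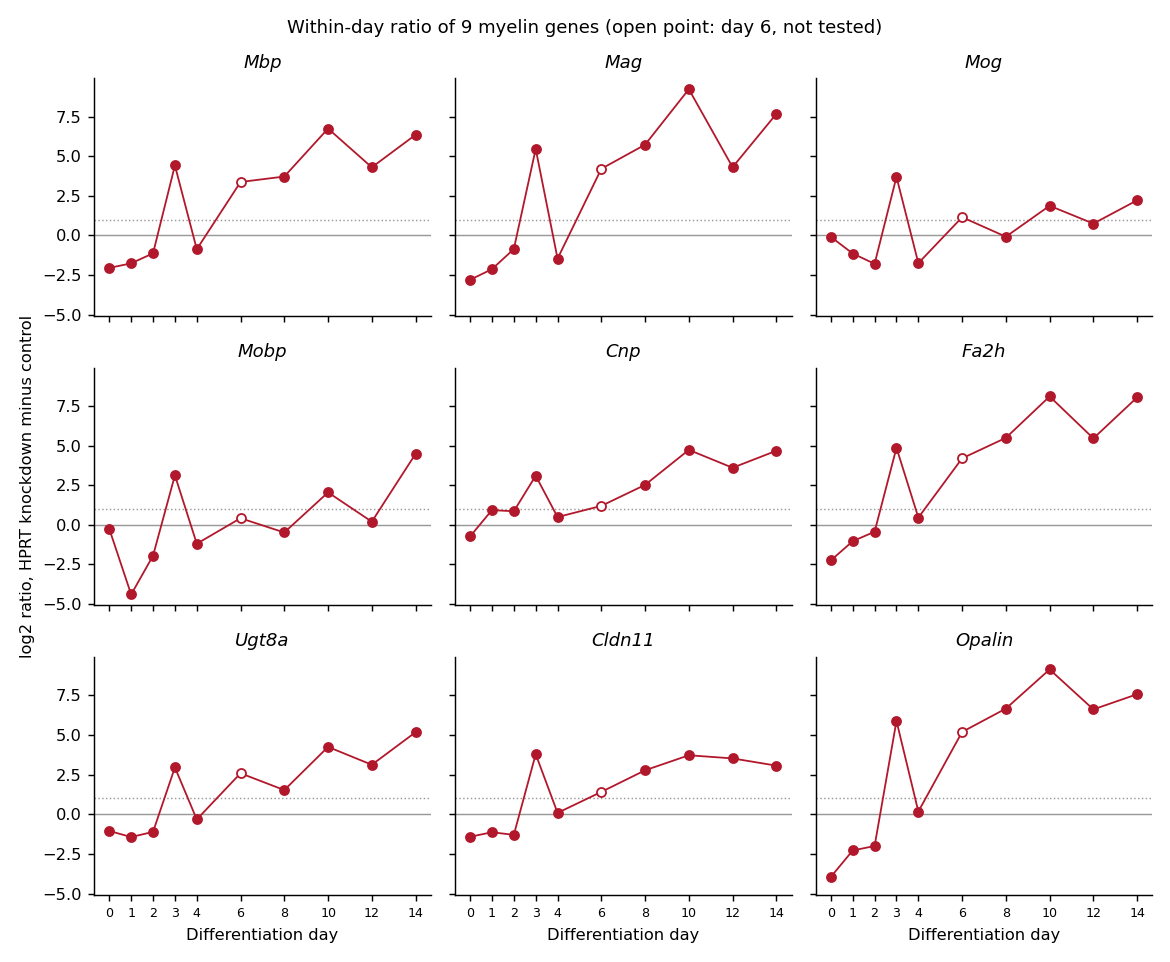
Log2 ratio of the HPRT knockdown over the Control by differentiation day for each of the 9 genes, 1 pair of libraries per point (solid line at 0, dotted line at 1, open point for day 6, which was not tested). All 9 genes are above 2.9 on day 3 and below 0.5 on day 4, and Mag, Fa2h and Opalin exceed 8 on day 10.

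By day, the ratio was at least 2-fold lower in the knockdown for 6 of 9 genes on day 0 (6.62% of all genes), 8 of 9 on day 1 (12.9%), 6 of 9 on day 2 (8.68%) and 3 of 9 on day 4 (6.01%). On these 4 days it was at least 2-fold higher for 0 of 9, where 12.5%, 10.1%, 7.77% and 9.39% of all genes were. It was at least 2-fold higher for 9 of 9 on day 3 (all genes 9.95%), 8 of 9 on day 6 (4.49%), 7 of 9 on day 8 (9.03%), 9 of 9 on day 10 (9.64%), 7 of 9 (day 12, 7.94%) and 9 of 9 (day 14, 9.41%). The 2 genes short of it on days 8 and 12 were Mog and Mobp.

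The promoters of genes that move together are shown for their letters alone. RefSeq promoter stretches on GRCm38.p6, from 250 bases before to 50 after a start, were held for 7 of the 9 genes (none for Mbp and Fa2h). The core of the motif of MYRF, the regulator that turns on myelin genes, was searched as CTGGCAC or CTGGTAC on both strands. It was present in 4 of the 7 promoters (Mag, Cnp, Mog and Opalin), while 7.10% of 32851 promoters of this length hold it. The SOX core, ACAAAG or ACAATG on both strands, was in 4 of the 7 (Mag, Mobp, Cnp and Opalin) against 28.6% of promoters, with 6 copies in that of Mobp. The E-box, CANNTG, was in 4 of the 7 against 72.3% of promoters, and TATAAA in 0 of the 7 against 13.6%. The 4 stretches with the MYRF core follow, with MYRF and SOX letters in capitals. The first 3 end at the base before the start, and for Mag the first of 3 listed starts was used.
Mag, chr7:30914864-30915113, minus strand: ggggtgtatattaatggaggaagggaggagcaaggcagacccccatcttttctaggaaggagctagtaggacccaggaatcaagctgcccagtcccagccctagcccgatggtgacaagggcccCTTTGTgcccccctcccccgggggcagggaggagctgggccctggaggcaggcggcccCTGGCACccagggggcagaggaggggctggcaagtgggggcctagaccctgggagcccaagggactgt
Cnp, chr11:100574689-100574938, plus strand: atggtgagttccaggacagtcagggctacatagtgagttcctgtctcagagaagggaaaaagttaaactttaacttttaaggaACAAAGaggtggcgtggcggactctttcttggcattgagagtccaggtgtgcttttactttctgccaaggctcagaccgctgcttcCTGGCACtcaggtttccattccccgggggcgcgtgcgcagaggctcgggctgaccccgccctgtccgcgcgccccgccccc
Mog, chr17:37023399-37023648, minus strand: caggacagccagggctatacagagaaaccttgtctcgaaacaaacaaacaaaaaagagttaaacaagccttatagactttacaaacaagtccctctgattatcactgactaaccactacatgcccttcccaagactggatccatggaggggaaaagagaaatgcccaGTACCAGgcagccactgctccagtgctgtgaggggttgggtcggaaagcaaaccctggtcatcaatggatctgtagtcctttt
Opalin, chr19:41077064-41077090, minus strand: ACAAAGacctgcaGTGCCAGtgagaga

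In Mag, Cnp and Mog the MYRF letters began 68, 81 and 83 bases before the start, and in Opalin they began 37 bases after it. These matches describe letters in the sequence, and no binding was measured.

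The first test asked whether a gene differed between the lines over the whole course (limma on the 9 ratios, Benjamini-Hochberg adjusted over 13608 genes). Of the 8 genes past the filter 2 were called higher, where 26.2% of all genes were. They were Cnp, at 2.24 ± 1.95 (SD, n = 9 days; limma adjusted p = 0.00927), and Fa2h, at 3.19 ± 4.01 (limma adjusted p = 0.0463). Without day 3 only Cnp remained, at 2.13 (limma adjusted p = 0.0242; 22.8% of all genes), and Fa2h had an adjusted p of 0.0942. Leaving out day 8, 10, 12 or 14 also left 1 of 8. For the other 6 genes the mean ratio was between 0.18 (Mobp) and 2.79 (Mag).

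The second test compared the 4 late days with the 5 early days, 0 to 4. All 8 genes had a larger ratio late, with a median difference of 3.49 against 0.05 for all genes. With day 3 counted among the early days 3 of 8 were called (2.65% of all genes). Mag went from -0.36 ± 3.33 (SD, n = 5 days) to 6.73 ± 2.16 (SD, n = 4 days), Fa2h from 0.32 ± 2.72 to 6.77 ± 1.5 and Mbp from -0.28 ± 2.67 to 5.27 ± 1.49, with limma adjusted p values of 0.0479, 0.0353 and 0.0470. Without day 8 it was 5 of 8, but leaving out any 1 of days 0, 1, 2, 4, 10, 12 and 14 left 0 of 8 past the threshold by limma, with 6 of 8 at an unadjusted limma p under 0.05 each time. Calls over all genes moved too, from 361 higher of 13608 to between 18 (without day 10) and 120 (without day 0) in these settings, and to 809 without day 8.

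Leaving out each day in turn was planned, but day 3 was singled out after its values in these genes were seen. It was the highest early ratio of each gene, so leaving it out was bound to raise each difference. The shares of all genes without day 3 come from genes for which that day was not picked, so they are not a like comparison. Without day 3 the early ratios drew together, and 6 of 8 genes were called (2.96% of all genes). The difference was 8.54 ± 1.00 (SE, limma adjusted p = 0.00871) for Mag, 7.58 ± 0.82 (0.00797) for Fa2h and 6.73 ± 0.69 (0.00723) for Mbp. It was 4.50 ± 0.72 (0.0174) for Ugt8a, 4.21 ± 0.37 (0.00488) for Cldn11 and 3.50 ± 0.57 (0.0193) for Cnp. Mog at 2.38 ± 0.58 (0.0530) and Mobp at 3.51 ± 1.23 (0.122) did not pass. Opalin, fitted with no filter, had a difference of 9.51 ± 0.96 (0.0189), which depends on the floor of its Control values. All late days lay above days 0, 1, 2 and 4 for 8 of 9 genes, Mobp being the exception, and for 11.0% of all genes. With day 12 also left out 4 of 8 were called.

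In the knockdown line alone, 4 of 8 genes rose from early to late days with day 3 included (5.34% of all genes) and 8 of 8 without it (3.89%). Day 3 was the highest early level of each gene here too, so results without it carry the same limit. The rise without day 3 was 6.27 ± 0.74 for Mag, 5.38 ± 0.53 for Cldn11, 4.96 ± 0.60 for Mbp and 4.76 ± 0.61 for Fa2h. It was 4.15 ± 0.73 for Mobp, 3.43 ± 0.55 for Ugt8a, 3.12 ± 0.69 for Mog and 2.54 ± 0.58 for Cnp, with limma adjusted p values between 0.00905 (Cldn11) and 0.0460 (Cnp). Opalin rose by 7.76 ± 0.75 with no filter (limma adjusted p = 0.0119). The late days lay above days 0, 1, 2 and 4 for all 9 genes, as for 9.13% of all genes. Mobp and Mog thus rose within the knockdown line, and their late minus early ratios did not pass. With all 9 days, leaving out day 1, 2, 4, 10, 12 or 14 left 0 of 8 by limma (6 or 7 at an unadjusted p under 0.05), while leaving out day 0 left 1 and day 8 left 6. In the settings with 0 of 8, 12 to 58 of all 13608 genes were called higher, where 727 were with all 9 days. With days 3 and 12 both left out 1 of 8 was called, Cldn11 (8 unadjusted).

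**Figure D3:**
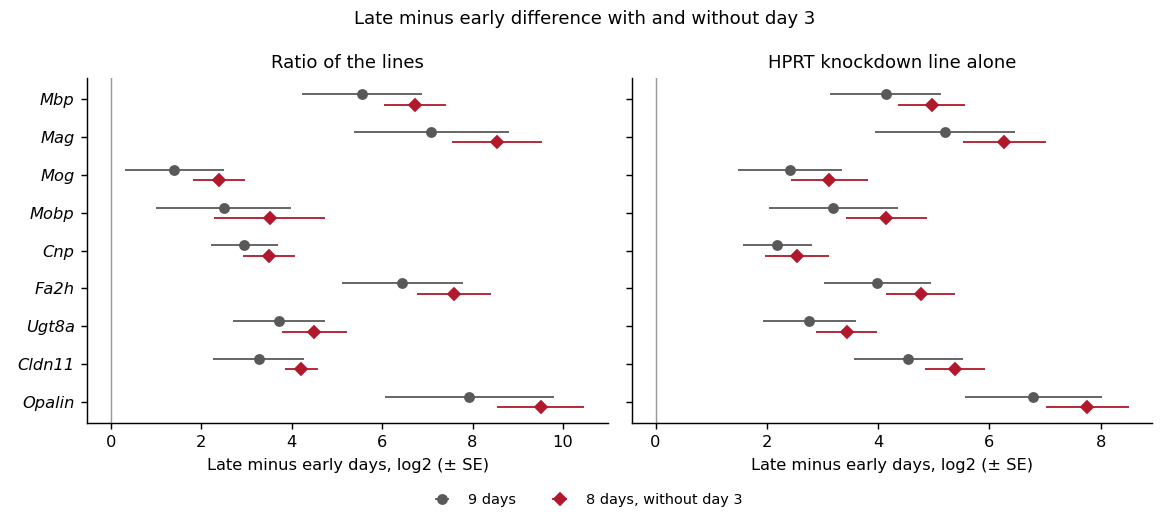
Difference between the late days (8 to 14) and the early days (0 to 4) for each gene, log2 with the standard error of the limma fit, for the ratio of the lines (left) and the knockdown line alone (right). Gray circles use 9 days and red diamonds leave out day 3. Since day 3 was the highest early value of each gene, leaving it out raises every estimate, and every error bar is narrower.

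The day of onset was then read, as the first day from which a gene stayed at least 2-fold up on every later day, with no test. For the ratio it was day 6 in 7 of 9 genes (Mbp, Mag, Cnp, Fa2h, Ugt8a, Cldn11 and Opalin) and day 14 in Mog and Mobp. All 9 had an onset, which for all genes is the 9.41% that were 2-fold higher on day 14. Within the knockdown line it was also day 6 in 7 of 9 genes, with Mobp in place of Cnp, and day 10 in Cnp and Mog (9.88% of all genes had one). At a 4-fold threshold the genes spread out, with ratios in place from day 6 in Mbp, Mag, Fa2h and Opalin, from day 8 in Cnp and Cldn11, from day 10 in Ugt8a and from day 14 in Mog and Mobp. With the doubted day 6 left out the 7 genes had their onset on day 8. None had an onset on day 3, since each fell below the threshold again on day 4.

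The Control line took another course. Of the 8 genes 1 rose late (Cldn11, 1.34 ± 0.47 SE, limma adjusted p = 0.0446; 19.6% of all genes rose) and 1 fell (Ugt8a, -1.02 ± 0.31, 0.0280; 23.6% fell). Without day 3 Cldn11 did not pass (0.0917), while Fa2h did, at -2.51 ± 0.80 (0.0415). Leaving out day 0, 1, 2 or 14 ended the call of Ugt8a (limma adjusted p of 0.0542 to 0.0578), and that of Cldn11 held only without day 0 or day 8. The Control library of day 12 was higher in some of the 9 genes than its neighbors. Against day 10 it was 16.7-fold higher for Mag, 4.19-fold for Fa2h and 3.81-fold for Mbp. Opalin left the floor, and these 4 of 9 were the ones at least 2-fold up (1.55% of all genes). Day 14 was at least 2-fold lower than day 12 for 5 of 9 (3.15%), among them Mag at 4.82-fold and Fa2h at 3.64-fold. From day 10 to day 12 the knockdown step was -0.84 for Mag and -0.57 for Fa2h, smaller in size than their Control steps of that interval. Between the same 2 days the reverse held for Ugt8a, at -0.97 in the knockdown and 0.15 in the Control. It also held for Mobp, at -1.21 and 0.62, and for Cldn11, at -0.11 and 0.07.

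Other genes of myelin and of its cells were described by lists written with earlier results of these data known. Among 18 other myelin and paranode proteins past the filter, the late minus early ratio was called higher for 5 (2.65% of all genes). Without day 3 it was called higher for 10 (2.96%). None was called lower, and the median difference was 2.01 with day 3 included. The largest were Bcas1 at 5.79 (limma adjusted p = 0.0346), an early oligodendrocyte protein, and Gjc3, a glial gap junction protein, at 5.77 (0.0338). The other called genes, named after their values were seen, were Trf, transferrin, at 4.35, Omg, a myelin glycoprotein, at 3.53 and Cmtm5 at 3.02. The smallest were Car2 at 0.09, Cryab at -0.91 and Cntn2 at -1.40, none of them called. The mean ratio over the whole course was called higher for 11 of the 18 (26.2% of all genes). It was called lower for 2 (3579 of all 13608 genes), Car2 at -1.01 (limma adjusted p = 0.00157) and Cntn2 at -2.93 (0.00127). Among 14 other lipid enzymes the late minus early ratio was called higher for 3 (2.65% of all genes) and lower for none. These were Gal3st1, which makes sulfatide, at 4.75 (0.0356), Elovl7, an elongase of fatty acids, at 3.78 (0.0374), and, named after its value was seen, Enpp2 (autotaxin, which makes lysophosphatidic acid) at 2.35 (0.0356). Enpp6, a choline phosphodiesterase of new oligodendrocytes, had the largest value, 5.84, and passed only without day 3 (0.0712 with it, 0.0151 without). The smallest values of the list were Ugcg at -0.09, Sptlc2 at -0.11 and Aspa at -0.15, none of them called. Over the whole course the mean ratio of Ugcg, the glucosylceramide synthase, was lower at -0.51 (limma adjusted p = 0.000845) and that of Aspa, which breaks down N-acetylaspartate, was higher at 0.97 (0.00457).

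Of 12 genes of the oligodendrocyte lineage 8 had a higher mean ratio (26.2% of all genes) and 5 a higher late minus early ratio (2.65%). The largest late differences were those of Gpr37l1 at 6.96 (limma adjusted p = 0.0683), Zfp488, a corepressor of the lineage, at 6.01 (0.0435), and Sox10, its central transcription factor, at 5.60 (0.0224). Also called, and named after their values were seen, were Gpr17, a receptor of committed precursors, at 5.59, and the transcription factors Nkx2-2 at 2.97 and Olig2 at 2.23. The smallest were St18 at 0.27, Pdgfra, the receptor of precursors, at 0.15, and Nkx6-2 at -0.02. Sox10 and Zfp488 took the day 3 course too, with knockdown steps of 3.43 and 4.55 to day 3 and of -3.91 and -4.89 to day 4. For Nkx6-2 these steps were -0.19 and 0.77. At least 2-fold upward steps to day 3 were seen for 8 of the 12 genes (all genes 6.07%). They were seen for 12 of 18 other myelin proteins and 4 of 14 other lipid enzymes. Such steps were seen for 3 of 7 Schwann cell and neural crest genes, 1 of 6 astrocyte and 1 of 6 neuron genes. Of the fibroblast and meninges genes 0 of 8 had one, and of the Sertoli genes 1 of 3.

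Among the 5 genes whose 10 ratios followed the median of the myelin genes most closely were Tnr, a matrix protein of oligodendrocytes (Pearson r = 0.986 across 10 days), Afap1l2 (0.983), Trf, transferrin (0.980), and Gal3st1 (0.977). These r values describe successive days of the same pair of lines and carry no test. Tnr had ratios of 0.81, 3.91 and 0.80 on days 2, 3 and 4. Within the 9 genes r with that median was lowest for Mog (0.836) and Mobp (0.837) and highest for Mbp (0.991).

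Markers of other cell types were set beside these results. Of 7 Schwann cell and neural crest genes past the filter 2 had a higher late minus early ratio, where 2.65% of all genes had. They were Erbb3 and (named after its value was seen) Egr2 at 2.40. The largest were Erbb3 at 2.82 (limma adjusted p = 0.0360), Foxd3 at 2.65 (0.0587) and Cdh19 at 2.46 (0.122). Erbb3, Foxd3 and Cdh19 also had day 3 steps, of 3.43, 2.96 and 1.52. Pmp2, a lipid-binding protein of Schwann cell myelin, was below the filter. Prx at -0.02, Pmp22 at -0.28 and Ngfr at -0.40 had no called late minus early difference. Over the course the mean ratio was called higher for 0 of the 7 and lower for 1 (3579 of all 13608 genes). That was Ngfr, at -0.398 (limma adjusted p = 0.0419). Of 6 astrocyte genes 1 had a called late minus early ratio (2.65% of all genes were called higher). It was S100b, which oligodendrocytes also make, at 5.22 (limma adjusted p = 0.0333). The others were Gfap at 0.77, Aqp4 at 0.24, Slc1a2 at -0.47, Slc1a3 at -0.60 and Aldh1l1 at -1.12. The mean ratio over the course was called higher for 6 of these 6, against 26.2% of all genes. The 6 neuron genes past the filter ranged from -0.62 for Elavl3, -0.67 for Map2 and -1.05 for Syt1 to -1.25 for Tubb3, -1.48 for Stmn2 and -2.37 for Snap25, with none called and Rbfox3 below the filter. Their mean ratio over the course was called lower for 3 of 6, where 3579 of all 13608 genes were. These were Tubb3 at -1.88, Stmn2 at -2.01 and Syt1 at -0.95 (limma adjusted p of 0.000704, 0.000554 and 0.0234).

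Of 8 fibroblast and meninges genes none had a higher late minus early ratio and 1 a lower one (406 of all 13608 genes). It was Thy1 at -1.78 (limma adjusted p = 0.0224), beside Lum at -1.75 and Col1a2 at -1.35. Postn at -0.22, Pdgfrb at -0.46 and Dcn at -0.63 were the highest. Over the course the mean ratio was called higher for 0 of the 8 and lower for 2 (3579 of all 13608 genes). These were Postn at -0.70 (limma adjusted p = 0.0177) and Lum at -1.07 (0.0257). The 5 microglia genes were all below the filter. Of 3 Sertoli genes past it the late minus early ratio was 1.29 for Gata4, -0.62 for Dmrt1 and -0.92 for Sox9 (limma adjusted p = 0.0211, called lower). Over the course the mean ratio of Sox9 was called higher, at 0.67 (limma adjusted p = 0.00649). That of Dmrt1 was called lower, at -3.21 (0.00166), and that of Gata4 was -0.96 (0.0639). Summed levels of these lists cannot be given, since the tables hold no levels, and their part in the myelin gene results was not tested.

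**Figure D4:**
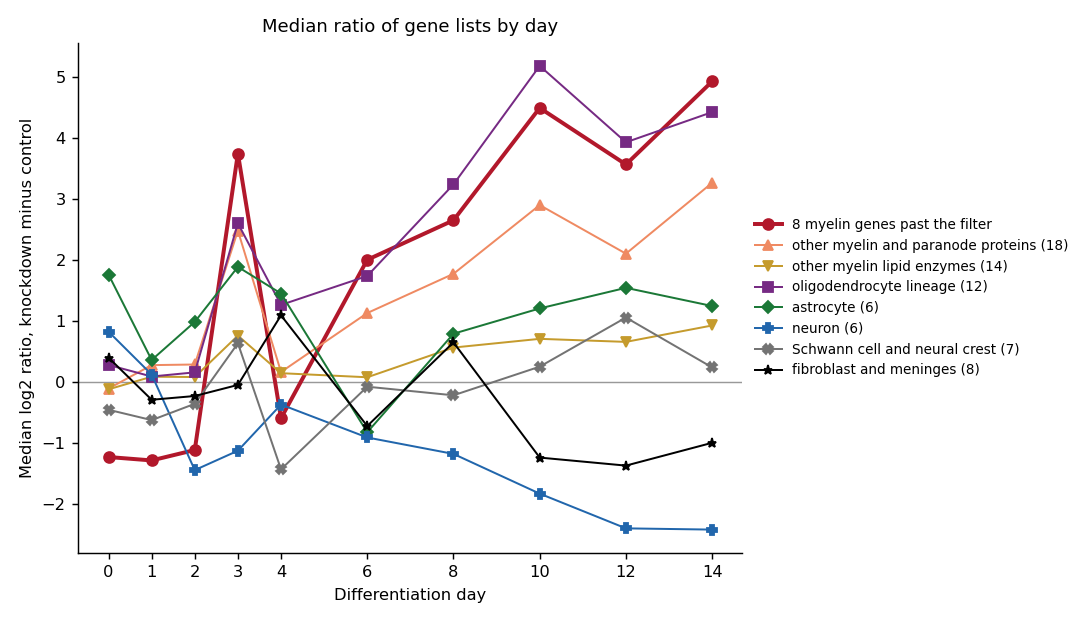
Median log2 ratio of the HPRT knockdown over the Control by differentiation day for the 8 myelin genes past the filter (thick red) and for lists of other genes, with the number of genes in brackets. The myelin median is 3.74, -0.60 and 4.93 on days 3, 4 and 14, the lineage list has the same day 3 peak, and the neuron list is below 0 from day 2 on.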

How the data were processed

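Per the study's methods, reads (TruSeq RNA v2, Illumina) were aligned to mm9 in CASAVA (1.8.2 per the labels), counted per gene in Avadis NGS and normalized with DESeq by the authors. The authors deposited 28 tables of 2 libraries on a log2 scale centered on the mean of both: 10 pair the lines within a day and 9 per line pair consecutive days. They hold ratios, not levels. Each was normalized separately, and counts of 1 or less were set to 1, so ratios of low genes are understated. Strand was not used.

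Groups came from the labels, and libraries were paired by collection day. Levels were read from the rounding step of the single-precision values: of 37561 genes 19041 had reads, 13608 passed the filter (log2 normalized count of 4 or more) and 8248 reached 8. Tests used limma 3.58.1 in R 4.3.3 (lmFit, eBayes), Benjamini-Hochberg adjustment over all genes tested and a threshold of 0.05, after checks on simulated data. A line's days are successive collections rather than independent cultures, so p-values measure the spread between days. Gene positions are GENCODE's on NCBIM37, the build of mm9. The 9 genes and all lists were chosen with earlier results of these data known. Named were the 9 genes, Hprt, the 3 largest and 3 smallest late minus early ratios of each list and the 5 genes most like the median of the 9. Some genes of the lists are not reported here by name.

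Around the 4 tables that join 2 neighboring days of both lines, differences should add up to a constant. For the 9 genes the loop of days 3 and 4 left residuals of 0.00877 to 0.356, and in the other 8 loops Mobp and Opalin were the 2 genes above 0.01. Alternatives were the filter, centering, day 6, each day left out, slopes on day, an exact sign-flip permutation test, unpaired libraries, another route for the Control step between days 3 and 4, onset thresholds, and a least-squares fit of all tables.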

Additional observations from a re-analysis of the deposited data

Results flagged for a closer look

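Among the 5 early or 4 late values of a gene, Dixon's gap test found a value far from the others in 13 of 54 groups. Of the 13, 9 were on day 3. The chance rate of about 1 in 20 holds for a single group and cannot be set against this count. The genes moved together, share the same libraries and enter both as ratios and as levels, so 1 library can give many of these values. Day 3 stood apart among the early ratios of Mbp (4.42), Mag (5.46), Ugt8a (2.96) and Cldn11 (3.79). It also stood apart among the early knockdown levels of Mbp (3.45 above day 0), Fa2h (3.29), Ugt8a (3.26), Cldn11 (3.79) and Opalin (4.57). On day 12 the Control levels of Mog (0.95) and Fa2h (-3.00) were far above the other late days. The knockdown level of Cnp on day 8 (0.89) and the Control level of Ugt8a on day 14 (-2.16) were far below them.

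The late minus early change differed between the lines by limma for Mbp (5.55), Mag (7.09) and Fa2h (6.45, each the mean same-day log2 ratio of the late days minus that of the early days).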

How the results depend on the processing

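Of the 8 genes tested, 2 differed in mean ratio, 3 in late minus early ratio, 4 in the knockdown line and 2 in the Control line. Leaving out 1 day at a time gave 1 to 2 calls for the mean ratio, 0 to 6 for the late minus early ratio, 0 to 8 for the knockdown line and 0 to 2 for the Control line; the highest of the knockdown line and of the late minus early ratio came without day 3. With no filter, where 19041 genes entered the fit and the adjustment, 1, 0, 2 and 1 of 9 were called (2, 7, 9 and 3 at an unadjusted p under 0.05). Of all 19041 genes 3749, 211 and 632 were called higher in the first 3 tests, and 3432 lower in the Control line. At a typical log2 normalized count of 8 or more, which 3 of the genes reach, 1 was called in mean ratio, 2 in late minus early ratio, 3 in the knockdown line and 1 in the Control line. Of all 8248 genes at that level 2361, 464, 532 and 1482 were called higher in the same order. Keeping day 6 left 0 of 8 in the knockdown line by limma (8 at an unadjusted p under 0.05), where 16 of all 13608 genes were called higher. Days 3 and 12 left out together, chosen after seeing the data, gave 0 for the mean ratio (1 unadjusted) and 1 for the knockdown line (8 unadjusted). Of all 13608 genes 2747 and 16 were called higher in these. No filter and no day 3, also chosen after seeing the data, gave 1 for the mean ratio, 7 of 9 for the late minus early ratio, 7 of 9 for the knockdown line and 0 for the Control line (3 unadjusted). Among all 19041 genes 3185, 244 and 436 were called higher in the first 3 of these. The exact sign-flip permutation test called 1 in mean ratio, Cnp, where 3290 of all 13608 genes were called higher. Slopes on day called 6 of 8 in the ratio, and 1011 of all 13608 genes as higher. Without pairing the libraries by day (no replicate block) 5 of 8 were called in late minus early ratio and 2 in mean ratio. Of all 13608 genes 302 and 3141 were then called higher. The median onset day of the ratio was 6, and 8 at a 4-fold threshold or with day 6 left out. Leaving out 1 day at a time, the mean ratio ranged from -0.0024 to 0.68 for Mog and from -0.36 to 0.75 for Mobp. The mean ratio of Mog turned to -0.0024 without day 3, with the filter or with none, and to -0.11 without days 3 and 12. That of Mobp, 0.18 on all 9 days, turned to -0.19 without day 3, with the filter or with none, to -0.06 without day 10, to -0.36 without day 14 and to -0.25 without days 3 and 12; neither mean was called under any of these. The cause of these changes was not tested. Among single genes, 386 of the other values kept their direction and their side of the threshold, 87 kept the direction and lost the call and 33 gained one. These counts include least-squares ratios, which have no threshold. They also include an exact permutation test of 5 against 4 days, judged by its unadjusted p, by which Cnp and Ugt8a count among the gains.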
